A study of Mus musculus with 2 samples.

Results

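Smooth muscle contractile genes were examined in RNA of gut epithelial cell preparations from Lrrc19 KO and WT mice. They are 38 genes for the actin and myosin filaments of smooth muscle, the proteins bound to them, their anchoring structures, and the kinases, channels, and receptors that set contraction. They were chosen by gene name, from the roles of their proteins in smooth muscle, with earlier results of these data known. Every probe set annotated with such a name was taken. Of the 38 genes, 37 had at least 1 probe set (85 in all), and 36 reached the floor, out of 18193 genes on the array and 12518 at or above the floor. The floor was the median intensity of all probe sets, 127, and a gene reached it when its value on either array did. Chrm2 had no probe set named here, and Chrm3 was under the floor on both arrays.

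The KO pool held RNA of 5 mice lacking the lrrc19 gene, and the WT pool RNA of 5 WT mice, mixed in equal parts. Each pool came from 2 males and 3 females of C57BL/6 background, 6 weeks of age, raised under SPF conditions. Intestine fragments were shaken in 30 mM EDTA, and CD4 and CD8 cells, B cells, DCs, and macrophages were then removed with magnetic beads; the labels name no step against muscle. Each pool was hybridized to 1 Affymetrix mouse array, so that single mice cannot be told apart, no difference has a replicate check, and no test was run. Precision is limited by this number of arrays. Both probe sets of Lrrc19 were lower in KO, at 212 in KO and 905 in WT, and at 20.9 in KO and 391 in WT. The deleted exons are not given in the sources used here.

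In smooth muscle, calcium entering through voltage-gated channels or released from stores binds calmodulin, which activates myosin light chain kinase. The kinase phosphorylates the regulatory light chain of myosin, the myosin heads pull on actin filaments, and myosin phosphatase reverses the step. The actin filaments end in dense bodies in the cytoplasm and in adhesion plaques at the membrane, which are joined by desmin filaments. In the gut these cells form the muscle layers of the wall and the thin muscularis mucosae under the epithelium, and smooth muscle also surrounds the vessels. Most of these genes are switched on by serum response factor with its coactivator myocardin. Serum response factor binds the CArG box, a site of 10 bases that opens with CC, closes with GG, and has 6 bases between them that are each A or T.

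The CArG box was looked up in the 250 bases before the gene start in RefSeq (GRCm38.p6), where 34 of the 38 genes had a promoter entry. Actg2, Myh11, Tagln, and Myocd had none. The pattern of the box is the same on both strands, although the bases of a given box need not be. The box was found in 5 genes (Myl9, Vcl, Fhl1, Dmd, and Ldb3), which is 14.7% of the 34, against 1.62% of the 27025 genes of the promoter table. Counted by window, it was in 13.3% of 45 windows of these genes and in 1.47% of all 32851 windows. A CArG box with 1 of its 6 inner bases replaced by C or G was found in 5 genes (Acta2, Myl9, Synm, Pdlim3, and Cacna1c), again 14.7%, against 8.33% of all genes. The stretches printed are those of Acta2, whose product is the standard marker of smooth muscle, of the 5 genes with the full box, and of Synm, which had the largest difference between the pools. The boxes are in capitals, and the bases around them in lower case.
Acta2 (GRCm38.p6 chr19:34255374-34255487, minus strand, both boxes with 1 inner base replaced): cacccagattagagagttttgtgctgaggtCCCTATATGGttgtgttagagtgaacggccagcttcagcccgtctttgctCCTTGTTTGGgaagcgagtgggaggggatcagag
Myl9 (chr2:156775273-156775404, plus strand, a full box and then a box with 1 inner base replaced): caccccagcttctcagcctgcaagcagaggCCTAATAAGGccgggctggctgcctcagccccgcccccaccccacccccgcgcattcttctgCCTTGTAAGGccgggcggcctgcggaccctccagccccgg
Vcl (chr14:20929148-20929210, plus strand): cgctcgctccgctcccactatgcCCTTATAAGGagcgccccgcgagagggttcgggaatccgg
Fhl1 (chrX:56779551-56779620, plus strand): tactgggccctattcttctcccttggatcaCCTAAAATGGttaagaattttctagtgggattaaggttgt
Dmd (chrX:82948742-82948811, plus strand): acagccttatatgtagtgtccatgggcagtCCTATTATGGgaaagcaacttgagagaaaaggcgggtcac
Ldb3 (chr14:34588682-34588746, minus strand): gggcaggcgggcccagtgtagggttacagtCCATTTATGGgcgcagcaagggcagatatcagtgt
Synm (chr7:67759942-67759992, minus strand, 1 inner base replaced): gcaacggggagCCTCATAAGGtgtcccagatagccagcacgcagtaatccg

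A match in these windows is a description of the letters and not a site in use. RefSeq gives 2 windows each for Fhl1, Dmd, and Ldb3, and the box was in 1 window of Fhl1, 1 of Dmd, and both overlapping windows of Ldb3. The full boxes began 227 bases before the start in Vcl, 161 in Myl9, 102 in Fhl1, and 98 in Dmd. Genes with and without a box lay on both sides of the results that follow, with Ldb3 lower in KO and Fhl1 among the genes past 1.5-fold.

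Smooth muscle contractile genes were higher in the KO pool than in the WT pool by a modest amount. Of the 36 genes, 33 (91.7%) were higher in KO by any amount, against 52.1% of all 12518 genes, and 3 were lower. Their median log2 difference, KO minus WT, was 0.39 (1.31-fold), with quartiles of 0.27 and 0.56, while the median of all genes was 0.01. By rank among the genes at or above the floor, 32 of the 36 genes (88.9%) lay in the highest 25% of all differences and 19 (52.8%) in the highest 10%. No gene differed 2-fold in either direction, against 0.559% of all genes at least 2-fold higher and 0.407% at least 2-fold lower. At 1.5-fold, 6 genes were higher (16.7%, against 2.78% of all genes) and none was lower (against 3.4% of all genes). The 6 were Synm, Ppp1r12b, Ryr2, Des, Cacna1c, and Fhl1. Fhl1 (log2 difference 0.59) was just inside this limit and Cald1 (0.58) just outside it.

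These figures depend on how the arrays are scaled to each other, which the sources used here do not give. After the medians of both arrays were made equal, the median difference was 0.31 and 32 genes were higher, and with 9 control genes centred at 0 it was 0.53 and 35 genes were higher. The hybridization spike-ins, transcripts added to each sample in the same amount, gave more signal in KO in 18 of 18 probe sets, with a median log2 difference of 0.50, which is above the median of the smooth muscle genes. The signs given here are thus relative to the bulk of the genes and not to these spike-ins. The ratio of the 3' to the 5' probe set, which rises as RNA degrades, was 1.5002 in KO and 1.2563 in WT for Gapdh, 1.77 in KO and 1.75 in WT for Actb, and 5.89 in KO and 4.14 in WT for the transferrin receptor. Its part in the result was not tested. In bulk RNA, more muscle cells in a pool and more RNA of these genes per cell cannot be told apart.

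**Figure D1:**
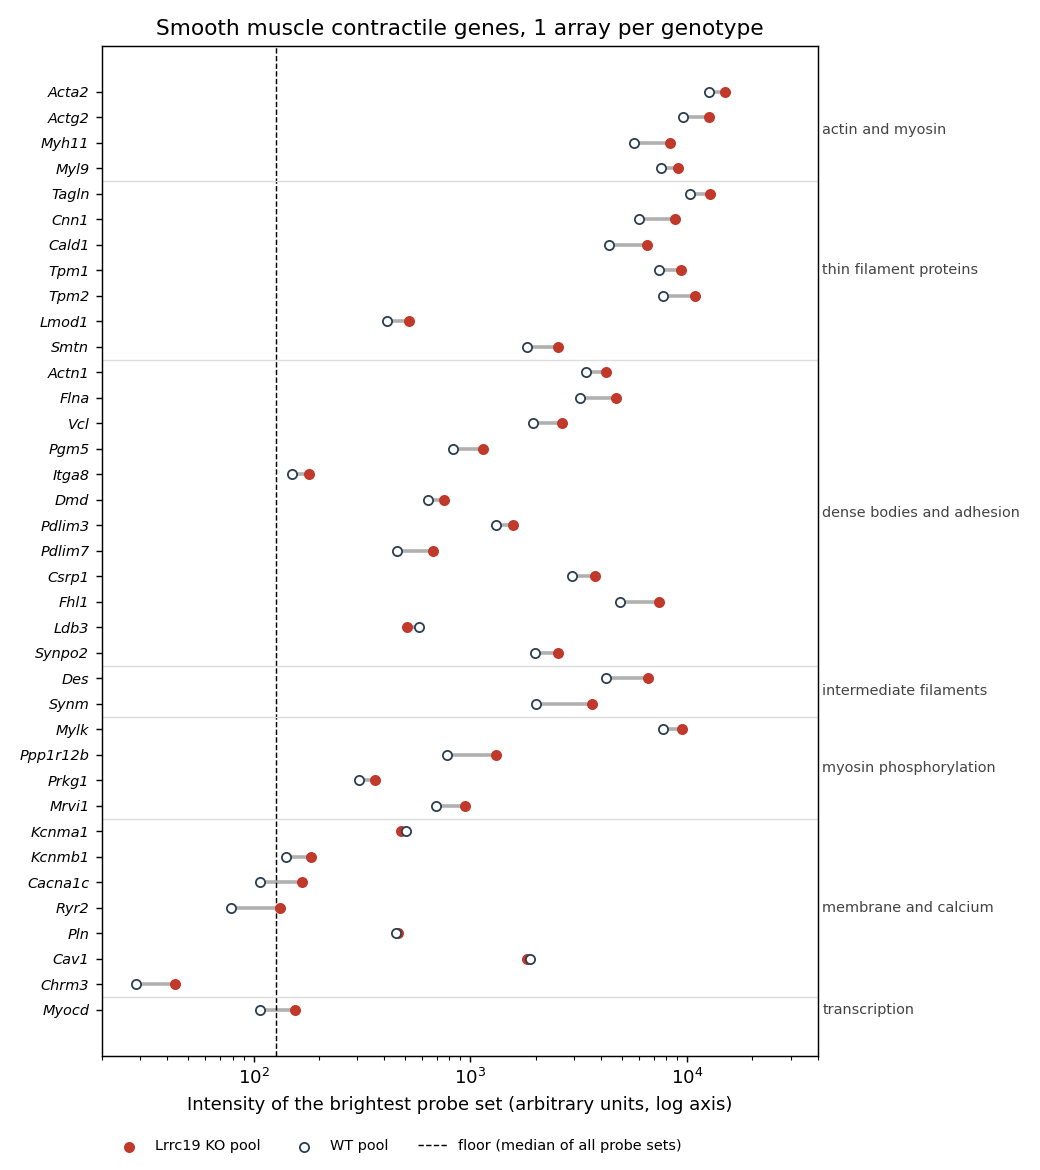
Intensity of the brightest probe set of each of 37 smooth muscle contractile genes (arbitrary units, log axis) in the Lrrc19 KO pool (filled red) and the WT pool (open), 1 array each and no error bars, ordered by role, with the floor of 127 dashed. The KO value lies to the right of the WT value in all but Ldb3, Kcnma1, and Cav1.

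The filament proteins themselves were all higher in the KO pool, against 52.1% of all genes. Acta2, the alpha-actin of smooth muscle, had an intensity of 14996 in KO and 12549 in WT (1.20-fold), on a probe set that can match several transcripts. Its second probe set, which carries no such mark, had 379 in KO and 296 in WT. The remaining one was under the floor on both arrays (24.5 in KO and 35.1 in WT). With all 3 averaged, the log2 difference of Acta2 was 0.03 instead of 0.26. Actg2, the gamma-actin that is abundant in the muscle of the gut wall, had 12595 in KO and 9534 in WT (1.32-fold). Its only probe set also can match several transcripts. Myh11, the myosin heavy chain that defines smooth muscle, had 8349 in KO and 5685 in WT (1.47-fold), and 539 in KO and 411 in WT on its other probe set. Myl9, the regulatory light chain that the kinase phosphorylates, had 9112 in KO and 7541 in WT (1.21-fold). The log2 differences of these 4 genes lay between 0.26 and 0.55, and every probe set of them at or above the floor was higher in KO.

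Proteins that lie along the actin filament were higher in KO in 7 of 7 genes (against 52.1% of all genes), with a median log2 difference of 0.48. Calponin (Cnn1), which binds actin and slows the myosin motor, had 8799 in KO and 5995 in WT (1.47-fold). Caldesmon (Cald1), another brake on the motor, had 6551 in KO and 4368 in WT (log2 difference 0.58), and its other probe sets at or above the floor had 4656 in KO and 2843 in WT, and 2425 in KO and 2029 in WT. The log2 difference of Cald1 thus ranged from 0.26 to 0.71 between probe sets of the same gene on the same arrays (SD 0.23, n = 3 probe sets). Transgelin (Tagln), an early marker of the lineage, had 12771 in KO and 10290 in WT (1.24-fold). The tropomyosins, which lie in the groove of the actin filament, had 10870 in KO and 7752 in WT for Tpm2 (1.40-fold), and 9362 in KO and 7440 in WT for Tpm1 (1.26-fold). All 4 probe sets of Tpm2 were higher in KO (log2 difference 0.25 to 0.49), and so were the 3 of Tpm1 at or above the floor (0.19 to 0.35). Smoothelin (Smtn), found in contractile smooth muscle, had 2534 in KO and 1816 in WT (1.40-fold). Leiomodin (Lmod1), which nucleates actin filaments, had 522 in KO and 411 in WT (1.27-fold).

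The intermediate filament genes were among those with the largest differences. Synemin (Synm), which links desmin filaments to the membrane, had 3638 in KO and 2014 in WT (1.81-fold), the largest difference of the 36 genes. Its second probe set had 1305 in KO and 704 in WT (1.86-fold), and the log2 differences of both, 0.85 and 0.89, lay close together. Desmin (Des), the main intermediate filament of muscle, had 6581 in KO and 4206 in WT (1.56-fold) on its brightest probe set. Its other probe set, close to the floor, was slightly lower in KO (120.2 in KO and 131 in WT), and with both averaged the log2 difference of Des was 0.26 instead of 0.65.

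Of the 12 genes for dense bodies and adhesion sites, 11 were higher in KO (against 52.1% of all genes), with a median log2 difference of 0.35. Filamin A (Flna), an actin cross-linker, had 4704 in KO and 3195 in WT (1.47-fold). Vinculin (Vcl), which couples actin to integrin adhesions, had 2653 in KO and 1952 in WT (1.36-fold). Pgm5 (aciculin), a component of muscle adhesion plaques, had 1141 in KO and 833 in WT (1.37-fold). The other cross-linker, alpha-actinin (Actn1), had 4213 in KO and 3413 in WT (1.23-fold), but its 3 probe sets did not share a direction, with log2 differences of 0.30, 0.12, and -0.26. Dystrophin (Dmd), which ties the cytoskeleton to the matrix, had 757 in KO and 636 in WT (1.19-fold), and 236 in KO and 254 in WT on its other probe set at or above the floor. Averaging all 4 of its probe sets brought the log2 difference of Dmd to -0.03. The integrin subunit Itga8, a receptor for matrix proteins, was close to the floor, at 179.8 in KO and 151 in WT.

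LIM domain proteins, which dock on alpha-actinin and the actin cytoskeleton, differed among themselves. Fhl1 had 7386 in KO and 4916 in WT (log2 difference 0.59), while its second probe set was under the floor on both arrays (39.4 in KO and 47.4 in WT), and with both averaged the log2 difference was 0.16. Pdlim7 had 675 in KO and 457 in WT (log2 difference 0.56), and all 3 of its probe sets were higher in KO (log2 difference 0.37 to 0.56). Csrp1 had 3748 in KO and 2941 in WT (1.27-fold), and Pdlim3 1571 in KO and 1307 in WT (1.20-fold). Ldb3, a protein best known from the Z-disc of striated muscle, was the exception, with 511 in KO and 582 in WT. Its second probe set at or above the floor had 215 in KO and 246 in WT, and the log2 differences of both, -0.19 and -0.20, stood below the median of all genes.

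Synpo2 (myopodin), an actin-bundling protein of dense bodies, showed the widest split between probe sets. Its brightest probe set had 2537 in KO and 1993 in WT (1.27-fold), and the dimmest of the 4 had 238 in KO and 214 in WT (1.12-fold). Between them, the second brightest had 648 in KO and 229 in WT (2.83-fold), and the other 504 in KO and 190.5 in WT (2.65-fold). These were the 2 probe sets of the 70 at or above the floor that differed at least 2-fold, against 0.729% of all 20450 single-gene probe sets at or above it. All 4 were above the floor on both arrays, and none carries the mark of a probe set that can match several transcripts. The files do not say which Synpo2 transcripts each probe set detects. With the 4 averaged, the log2 difference of Synpo2 was 0.85 instead of 0.35.

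**Figure D2:**
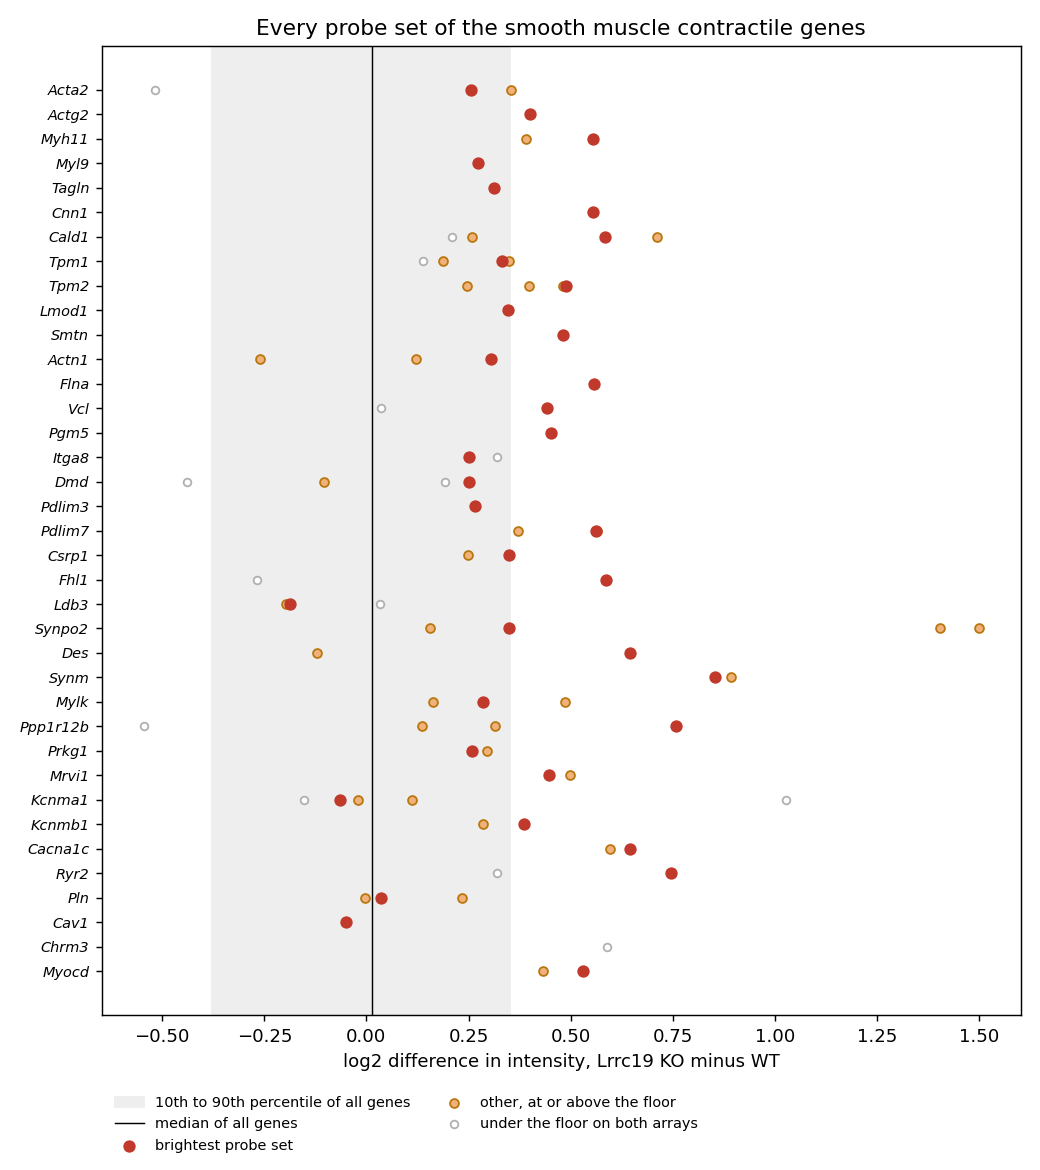
log2 difference in intensity, Lrrc19 KO minus WT, of all 85 probe sets of the smooth muscle contractile genes (brightest of each gene in red, others at or above the floor in orange, those under the floor on both arrays open), with the median of all genes as a line and their 10th to 90th percentile shaded (-0.38 to 0.35). The points of most genes lie right of the line, and 2 probe sets of Synpo2 stand apart at 2.65-fold and 2.83-fold.

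Genes that control myosin phosphorylation were higher in KO in 4 of 4 cases, against 52.1% of all genes. Myosin light chain kinase (Mylk) had 9418 in KO and 7721 in WT (1.22-fold), 5687 in KO and 4058 in WT on its second probe set, and 609 in KO and 544 in WT on the dimmest one. Ppp1r12b, a subunit that targets the phosphatase to myosin, had 1319 in KO and 780.2 in WT (1.69-fold), the second largest difference of the 36. Its 3 probe sets at or above the floor were all higher in KO, but by unequal amounts (log2 difference 0.14 to 0.76), and with all 4 averaged the difference was 0.17. The cGMP-dependent kinase Prkg1, which relaxes smooth muscle in response to nitric oxide, had 365 in KO and 305 in WT (1.20-fold). Its substrate at the calcium store, Mrvi1 (also named Irag1), had 945 in KO and 693 in WT (1.36-fold) and 504 in KO and 357 in WT on its second probe set. Kinase, phosphatase subunit, and the genes of the relaxing pathway thus lay on the same side.

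Membrane and calcium genes were the least uniform role, with a median log2 difference of 0.21 over the 6 of 8 that reached the floor. Cacna1c, the pore of the L-type calcium channel, had 168 in KO and 107 in WT, and 160.5 in KO and 106 in WT on its second probe set. Ryr2, a calcium release channel, had 132 in KO and 78.6 in WT. Both were under the floor in WT, so that their log2 differences of 0.64 and 0.75 are open to background, and with the WT value set to the floor they were at least 0.40 and 0.05. Kcnma1, the pore of the BK potassium channel, had 480.4 in KO and 502 in WT, and Kcnmb1, the subunit that raises the calcium sensitivity of this channel in smooth muscle, 183 in KO and 140.4 in WT (1.31-fold). Phospholamban (Pln), the inhibitor of the calcium pump of the store, had 466 in KO and 455 in WT, and caveolin 1 (Cav1), a coat protein of membrane pits that endothelium and fat cells share with muscle, 1823 in KO and 1886 in WT. The log2 differences of Kcnma1, Pln, and Cav1, at -0.06, 0.04, and -0.05, were the smallest of the 36 genes. Of the receptors for acetylcholine, Chrm3 was at 43.4 in KO and 28.8 in WT, both under the floor, and no fold is given.

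Myocardin (Myocd) had 155 in KO and 108 in WT on its brightest probe set and 147 in KO and 109 in WT on the other. The WT values were under the floor, and with the WT value set to the floor the log2 difference was at least 0.29.

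The smooth muscle genes were mostly bright, so each was also set beside genes of like intensity. When all genes were divided into 10 equal groups by mean intensity, the median log2 difference of these groups ran from -0.03 to 0.07, highest among the dimmest genes. Of the 36 smooth muscle genes, 33 lay above the median of their own group. The brightest group held 19 of them, with a median of 0.44, and all 19 were above the median of that group, -0.03. The 17 dimmer ones had a median of 0.35. At the level of probe sets, 61 of 70 (87.1%) at or above the floor were higher in KO, against 51.5% of all single-gene probe sets. For the 22 members with at least 2 such probe sets, the median SD between probe sets of a gene was 0.10 on the log2 scale. It was 0.15 for 5007 genes of the array, which were not matched for intensity. In 16 of the 22 members all probe sets were higher in KO, in 1 all were lower, and in 5 they were mixed. This count was not made for all genes, and probe sets of a gene are not replicates.

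**Figure D3:**
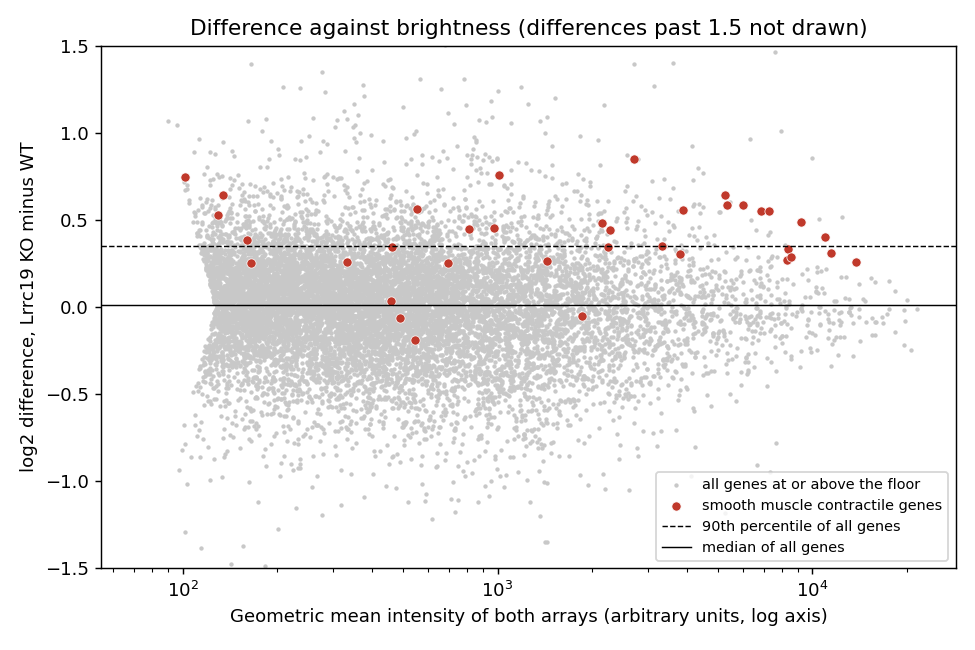
log2 difference, Lrrc19 KO minus WT, against the geometric mean intensity of both arrays (arbitrary units, log axis) for all genes at or above the floor (grey) and the 36 smooth muscle contractile genes (red), with the median and the 90th percentile of all genes as lines and 35 genes outside the vertical range left out. The red points lie mostly above the median at low and high brightness, and the 19 in the brightest group are all above it.

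Other genes of contraction, 100 in a list compiled from the same pathway, had a smaller median difference in the same direction. Of these, 88 had a probe set named here and 79 reached the floor, of which 64 were higher in KO (against 52.1% of all genes), 15 were lower, and the median log2 difference was 0.15. In the highest 10% of all differences lay 14 of the 79. At least 1.5-fold higher were 3 of the 79, a share near the 2.78% of all genes, and none was 1.5-fold lower (against 3.4% of all genes). The 3 were the small heat shock protein Hspb1 (5876 in KO and 3449 in WT, log2 difference 0.77), which binds actin filaments and is present in most cells, the sodium-calcium exchanger Slc8a1 (586 in KO and 353 in WT, 1.66-fold), and the filament protein nexilin, Nexn (352 in KO and 225 in WT, 1.57-fold). Ppp1r12a, the phosphatase subunit that smooth muscle mainly uses, had 2049 in KO and 1503 in WT (1.36-fold). Serum response factor (Srf) had 975 in KO and 830.5 in WT (1.17-fold).

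Marker lists of the cells that lie beside smooth muscle in the gut wall were read in the same way, beside the 52.1% of all genes higher in KO. Pericyte and vascular muscle markers were higher in 9 of 10 genes at or above the floor (13 listed). Their median log2 difference was 0.26, led by Rgs4 (257 in KO and 171 in WT) and Mcam (460.1 in KO and 338 in WT). Their summed intensity was 12009 in KO and 10055 in WT, of which Rgs5 alone made 7912 in KO and 6597 in WT. Enteric neuron and glia markers were higher in 9 of 11 (16 listed), with a median of 0.21 and sums of 7419 in KO and 6574 in WT. Of these sums, Erbb3 alone made 3652 in KO and 3405 in WT. The largest differences of the list were those of Snap25 (285 in KO and 198 in WT) and Ret (270.1 in KO and 198 in WT). Markers of the interstitial cells of Cajal, the pacemakers of gut muscle, were higher in 4 of 5 (8 listed), with Ano1 at 1456 in KO and 842 in WT (1.73-fold), while Kit, their defining receptor, had 529 in KO and 589 in WT. Their median was 0.26 over 5 genes, with sums of 3832 in KO and 3115 in WT, but it was 0.12 with all probe sets averaged, 0.088 with the floor at the 75th percentile, and 0.050 without probe sets that can match several transcripts (3 genes each in the last pair of settings).

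Fibroblast, endothelial, and epithelial markers stood nearer to 0, with shares nearer to the 52.1% of all genes higher in KO. Fibroblast markers were higher in 10 of 16, with a median of 0.07 and sums of 32083 in KO and 29861 in WT, with Fn1 (fibronectin) at 2776 in KO and 1822 in WT and the microfibril protein Mfap5 at 134 in KO and 252 in WT. Endothelial markers were higher in 6 of 10 (13 listed), with a median of 0.02 and sums of 3181 in KO and 3123 in WT. Eng was at 305 in KO and 239 in WT, and Emcn at 197 in KO and 158 in WT. The 4 lower ones were Cdh5, Kdr, Vwf, and Tek, with log2 differences from -0.18 to -0.28. All 16 markers of intestinal epithelium, the cell type in the labels, reached the floor in both pools, with 9 higher and 7 lower in KO, a median of 0.04, and sums of 167076 in KO and 166712 in WT. The chloride-bicarbonate exchanger Slc26a3 had the largest difference of that list (8844 in KO and 4525 in WT, 1.95-fold). The 36 smooth muscle genes summed to 152212 in KO and 114753 in WT, a ratio of 1.33. All markers were measured in the same RNA of intestine, and the part of other cell types in the smooth muscle values was not tested.

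**Figure D4:**
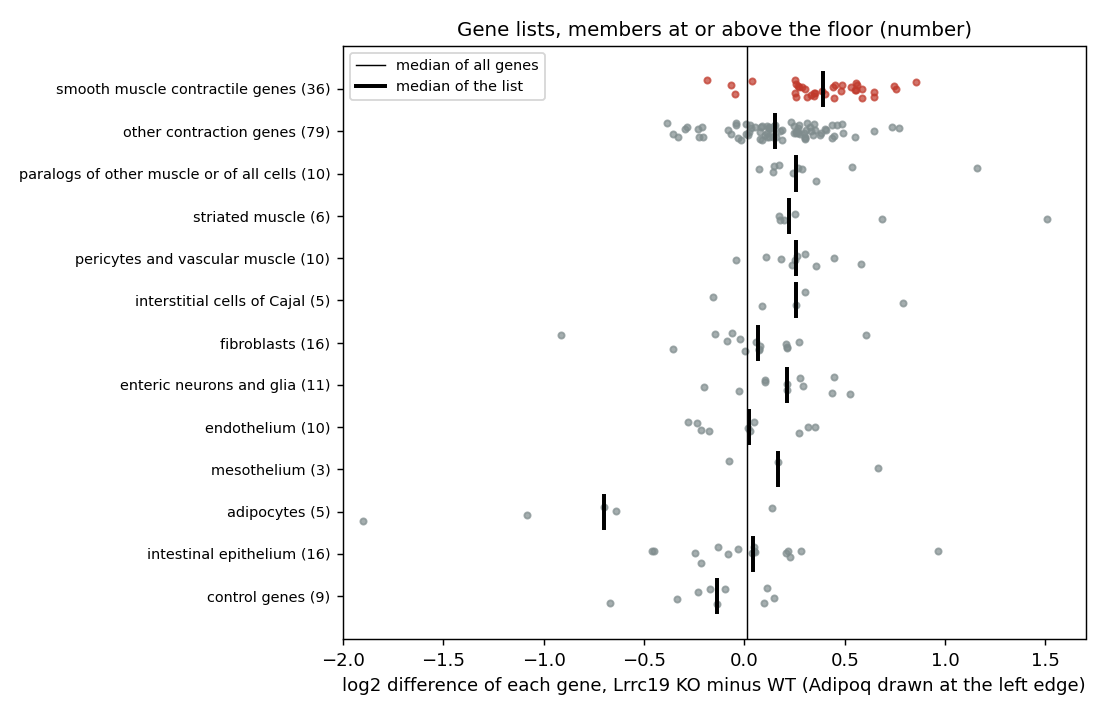
log2 difference, Lrrc19 KO minus WT, of each gene at or above the floor (points) in the smooth muscle contractile genes (red, 36 genes) and in 12 other lists (grey, number of genes in parentheses), with the median of each list as a bar and that of all genes as a line. The bar of the smooth muscle genes (0.39) lies farthest right, and those of fibroblasts (0.07), endothelium (0.02), and epithelium (0.04) lie close to the line.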

How the data were processed

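RNA of gut epithelial cell preparations was measured on 2 arrays, 1 for the Lrrc19 KO pool and 1 for the WT pool, grouped by the genotype in the sample labels. The table the authors deposited holds a linear intensity per probe set, 45101 in all. RMA is named in the submitters' processing notes. Its output is commonly on the log2 scale, whereas the deposited values reached 25842, with medians of 131 in KO and 124 in WT, and how the arrays were scaled is unstated.

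Values below 1 were raised to 1 before log2. Left out were 64 control probe sets, 932 probe sets annotated with several symbols, and 9160 unnamed here, which left 34945 with 1 symbol. Symbols were brought up to date with RefSeq (GRCm38.p6). A gene was read from its probe set of highest mean log2 value. As floor served the median (50th percentile) of all values. Probe sets named _a_at, _s_at, or _x_at can match several transcripts. Actg2, Smtn, Csrp1, Mrvi1, and Cav1 had only such probe sets. With 1 array per genotype no test was run, and genes were called at 1.5-fold or 2-fold. The members and lists were chosen with earlier results of these data known. Named are every member, Lrrc19, and of each other list up to 4 genes past 1.5-fold or, with none, the 2 of largest difference. Ppp1r12a, Srf, Kit, Myh14, Actb, Actg1, Msln, Wt1, and the myosin heavy chains of striated muscle were added after their values were seen. So were Rgs5, Erbb3, Cdh5, Kdr, Vwf, Tek, and Krt19. Tried were 8 alternatives of scaling, floor, and probe set choice. The procedure was tested on simulated data with a known shift between the arrays. Without scaling, the differences carried that shift, and calls of genes were checked only with equal array medians. Python 3.11.15, numpy 2.4.6, and pandas 2.3.3 were used.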

Additional observations from a re-analysis of the deposited data

How the results depend on the processing

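Under all 8 alternatives the median log2 difference of the smooth muscle genes stayed above 0 (0.31 to 0.53). No member was 2-fold apart in them, and none was 1.5-fold lower. None of the 8 scaled the arrays on the spike-ins, whose median log2 difference was 0.50. The share of members higher in KO was lowest with equal array medians (32 of 36) and highest with centring on the control genes (35 of 36), and from 15 to 23 lay in the highest 10% of all differences. The count of members at least 1.5-fold higher was 6 in the values as deposited. It was 3 after the medians of both arrays were made equal, and 15 with the arrays centred on the control genes. It was 3 with all probe sets averaged, and 4 once intensities below the floor were raised to it. With the floor at the 75th percentile it was 4 of 31, and at the 25th percentile 6. Quantile normalization gave 7, and so did leaving out probe sets that can match several transcripts (31 members). Centring on the control genes moved all genes by 0.14, the members' median to 0.53, and that of the other contraction genes to 0.29, of which 7 were then 1.5-fold higher instead of 3. The medians of some lists changed sign. With equal medians, fibroblasts were at -0.014, endothelium at -0.056, and intestinal epithelium at -0.036. Endothelium was at -0.019 with quantile normalization and at -0.18 without probe sets that can match several transcripts. Mesothelium was at -0.075 with the floor at the 75th percentile (1 gene, Krt19) and at -0.055 with all probe sets averaged (2 genes). Intestinal epithelium was at -0.0011 with all probe sets averaged. The cause of these changes was not tested. No paired analysis was possible because each genotype had 1 array.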

Other observations

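Several paralogs of the contractile genes that serve other muscle or all cells were also higher in the KO pool. Of 15 listed, 14 had a probe set named here and 10 reached the floor. All 10 were higher in KO, against 52.1% of all genes, and the median log2 difference was 0.26. Filamin C (Flnc), the muscle filamin, had 1185 in KO and 530 in WT (2.24-fold). Myh14, a non-muscle myosin heavy chain that epithelium expresses, had 5282 in KO and 3636 in WT (1.45-fold), while the cytoplasmic actins Actb (18408 in KO and 16614 in WT) and Actg1 were closer to the bulk of genes.

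Of 20 striated muscle markers, 6 reached the floor. Of the myosin heavy chains listed, Myh7, of slow and cardiac muscle, reached it (324 in KO and 288 in WT), and Myh1, Myh2, Myh4, and Myh6 did not. All 6 markers at or above the floor were higher in KO, against 52.1% of all genes. Their median log2 difference was 0.22, and their summed intensity was 3043 in KO and 1984 in WT. The muscle enolase Eno3 had 1144 in KO and 403 in WT (2.84-fold), and Tnni2 had 280 in KO and 174 in WT. Adipocyte markers, of another tissue that adheres to the gut wall, ran the other way in 4 of 5 genes (median -0.70, sums 2239 in KO and 3939 in WT), with Adipoq at 24.4 in KO, under the floor, and 313 in WT, Fabp4 at 648 in KO and 1372 in WT, Retn at 123 in KO and 199.8 in WT, and Pparg, which epithelium also expresses, at 1139 in KO and 1777 in WT. Of 8 mesothelial markers, 3 reached the floor, with Upk1b at 290.2 in KO and 183 in WT, and the defining markers Msln and Wt1 were under it. Krt19 made 11817 in KO and 12445 in WT of the list's sums of 12307 in KO and 12805 in WT. Of the 9 control genes at or above the floor, 6 were lower in KO (median -0.14), with Gusb at 269 in KO and 428 in WT.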
